A study of Mus musculus with 2 samples.

Results

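The genes described here are 10 apolipoprotein genes, Apoa1, Apoa2, Apoa4, Apob, Apoc1, Apoc2, Apoc3, Apoe, Apoh and Apom, out of 30406 genes that were counted in both of the study's single-cell libraries. They were chosen as a list of symbols and matched by Ensembl identifier, and all 10 were found in both. The libraries were made from livers of Col1a2CreER:Rosa26tdTomato mice, 1 from healthy animals and 1 from animals injured with carbon tetrachloride (CCl4), a toxin that hepatocytes activate and that, given repeatedly, scars the liver. In both groups the mice carried a tamoxifen-inducible Cre recombinase under the promoter of the collagen gene Col1a2 and a tdTomato reporter, so neither library came from wild-type animals. The labels do not give the number or age of the mice in a library, and the study's methods describe removal of most CD45-positive (immune) cells with magnetic beads before both libraries. Because each condition is a single library, a condition cannot be told apart from its library. Square brackets hold 95% limits, which reflect only the sampling of molecules or cells and not the spread between animals.

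Apolipoproteins are the protein part of lipoproteins, the particles that carry triglycerides and cholesterol through blood. Apolipoprotein B is the structural core of very-low-density and low-density lipoprotein, apolipoproteins A-I and A-II belong to high-density lipoprotein, and the exchangeable C and E proteins move between particles and control lipases and uptake by receptors. The hepatocyte is the main source of most of them, whereas Apoe is also made by many other cells, macrophages among them. Hepatocytes break easily when a liver is dissociated, and the RNA they release can enter droplets that hold another cell, so messages made almost only by hepatocytes can serve as a gauge of such background.

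Several members lie close together (GRCm38.p6, RefSeq). Apoe (ENSMUSG00000002985), Apoc1 (ENSMUSG00000040564) and Apoc2 (ENSMUSG00000002992) form a cluster on chromosome 7, at 19696244 to 19701310, 19689480 to 19692659 and 19671579 to 19677941. Apoa1 (ENSMUSG00000032083), Apoc3 (ENSMUSG00000032081) and Apoa4 (ENSMUSG00000032080) form another on chromosome 9, at 46228630 to 46230469, 46233050 to 46235636 and 46240844 to 46243458. The rest stand alone: Apoa2 (ENSMUSG00000005681) on chromosome 1 at 171221564 to 171226379, Apob (ENSMUSG00000020609) on chromosome 12 at 7977629 to 8016839, Apoh (ENSMUSG00000000049) on chromosome 11 at 108395297 to 108414396 and Apom (ENSMUSG00000024391) on chromosome 17 at 35128997 to 35131801.

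Promoter sequences were found in the RefSeq table for 8 of the 10 members. The 250 bases before a transcription start are printed for 3 genes whose patterns over cell classes differed most plainly in the counts: Apoa2, the gene with the most UMIs among those used as the gauge of hepatocyte background, Apob, which departed from the other gauge genes, and Apoe, which had sources outside hepatocytes. Capitals mark the motif TATAAA, and each sequence runs 5′ to 3′ on the gene's own strand.
Apoa2, chr1:171224804-171225053, + strand: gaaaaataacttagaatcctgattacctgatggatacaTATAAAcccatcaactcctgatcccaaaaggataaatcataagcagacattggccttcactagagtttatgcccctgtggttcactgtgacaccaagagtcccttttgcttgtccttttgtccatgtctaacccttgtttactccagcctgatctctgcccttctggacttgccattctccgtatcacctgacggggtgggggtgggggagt
Apob, chr12:7977427-7977676, + strand: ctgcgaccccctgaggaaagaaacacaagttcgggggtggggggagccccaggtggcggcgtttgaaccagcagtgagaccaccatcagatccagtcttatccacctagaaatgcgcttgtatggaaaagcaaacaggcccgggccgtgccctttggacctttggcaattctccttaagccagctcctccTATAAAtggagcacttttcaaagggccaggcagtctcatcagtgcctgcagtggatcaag
Apoe, chr7:19699189-19699438, - strand: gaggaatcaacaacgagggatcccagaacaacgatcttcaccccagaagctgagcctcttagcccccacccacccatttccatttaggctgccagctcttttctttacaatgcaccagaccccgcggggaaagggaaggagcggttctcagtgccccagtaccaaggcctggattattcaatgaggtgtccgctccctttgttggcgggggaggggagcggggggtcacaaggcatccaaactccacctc
TATAAA was found in the printed Apoa2 window at -212 to -207, in the Apob window at -60 to -55 from the start and, among windows not printed, in that of the second of 3 Apoe starts at -96 to -91 and, on the other strand, at -100 to -95. The second of 2 Apoa2 starts lacked it. The motif was present on either strand in 12.4% of 32851 promoters of the same length. The printed Apoe window, that of the first start, held neither this TATA box, nor the HNF4-type motif CAAAGTCCA, nor the HNF1-type motif GTTAAT, nor the GC box GGGCGG, which 0.384%, 6.43% and 32.7% of the promoters held on either strand, and GTTAAT was found on the other strand in the window of the third Apoe start at -172 to -167. Matches are given only as letters found in these windows.

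The healthy file held 6297 barcodes with 51122846 UMIs and the CCl4 file 8460 barcodes with 97611831, where a UMI (unique molecular identifier) stands for 1 captured RNA molecule. After the filters 5602 and 7314 cells remained, with medians of 6783.5 and 11876 UMIs, and 10 barcodes were present in both libraries. Cell classes were rebuilt by clustering without the 10 members, so none of their levels entered the clustering, and carry the suffix "-like". All 23 hepatocyte markers had a UMI in hepatocyte-like cells of both libraries. Hepatocyte-like cells numbered 259 in the healthy and only 21 in the CCl4 library, and 48 of the healthy ones formed a cluster (cluster 4) with a median of 42576.5 UMIs that had no CCl4 counterpart, while the other 211 and the 21 shared cluster 9 at medians of 2981 and 3478. A further cluster (cluster 10) of 68 healthy and 307 CCl4 cells expressed hepatocyte markers at a median of 863 and 857 UMIs. It was left unnamed because of this low depth together with the lack of hepatocyte markers among its 10 leading genes, those most raised over other cells. These leading genes included Apoc2, so the members were kept out of the clustering but not out of this step of the naming. The cluster is called low-UMI hepatic. Cholangiocyte-like (1265 and 20) and endothelial-like cells (2970 and 15) came mostly from the healthy library. Mesenchymal-like (10 and 3117), mesothelial-like (231 and 855), macrophage-like (14 and 179), T/NK-like (4 and 111) and B/plasma-like cells (1 and 132) came mostly from the CCl4 library. A cluster with 15 endothelial markers (cluster 6, 48 healthy and 632 CCl4 cells) stayed unnamed because haemoglobin genes were among those leading it. The B/plasma-like cluster carried 10 markers of its class but also 8 dendritic ones, with Siglech and Cd209d among its leading genes, so dendritic cells were not separated from it. A cluster of 1 healthy and 86 CCl4 cells carried neutrophil markers but was led by the mast cell and basophil genes Fcer1a and Mcpt8 as well, and is called granulocyte-marker. The macrophage-like class was named from a joint marker list of macrophages and monocytes, with Ly6c2 and Ccr2 on it, so monocytes were not separated from it. Unnamed clusters other than the low-UMI hepatic one held 779 healthy and 2471 CCl4 cells, 13.9% and 33.8% of those kept. The immune classes are what the bead depletion left, so their sizes are not those of the liver.

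The 10 genes together held 683840 UMIs of the kept healthy cells, 1.48% of all, and 359740 UMIs of the kept CCl4 cells, 0.411%. Levels are given as CPM, that is UMIs per 1000000 UMIs of a cell class in a library. Tags were counted at the 3′ end and are not divided by transcript length, so levels are compared between classes and not between genes.

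**Figure D1:**
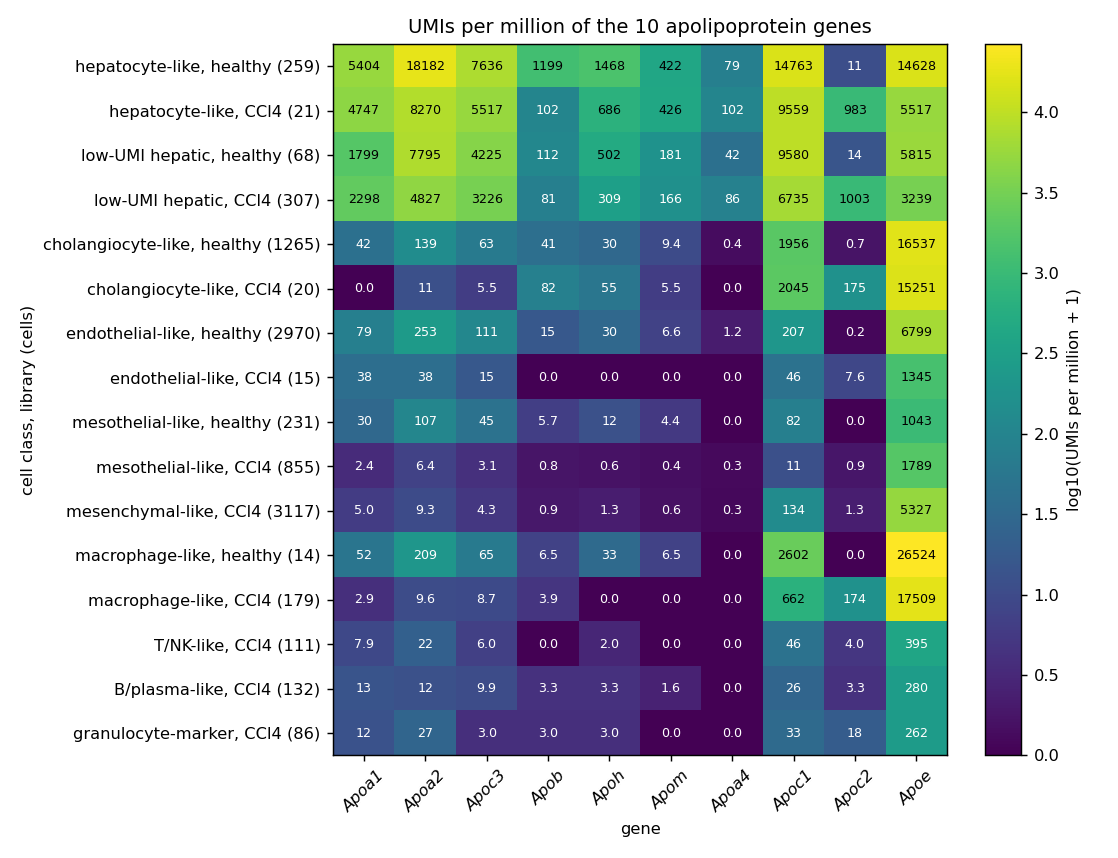
CPM of the 10 apolipoprotein genes (columns) in each cell class and library (lines, with cell numbers), coloured on a log10 scale. Apoa1, Apoa2, Apoc3, Apob, Apoh, Apom and Apoa4 stood at 79.1 to 18182 in healthy hepatocyte-like cells and at or below 253 in healthy non-hepatocyte classes, whereas Apoe exceeded 1000 in every cholangiocyte-like, endothelial-like, mesothelial-like, mesenchymal-like and macrophage-like class shown.

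In the healthy liver the genes of the high-density lipoprotein proteins and of the triglyceride-rich particles were concentrated in hepatocyte-like cells. Apoa2, which encodes a structural protein of high-density lipoprotein, was at 18182 [18022, 18344] CPM in the 259 healthy hepatocyte-like cells and at 8270 [7736, 8831] in the 21 CCl4 ones. Every healthy hepatocyte-like cell had an Apoa2 UMI. Apoa1, the main protein of high-density lipoprotein and the activator of lecithin-cholesterol acyltransferase, was at 5404 [5317, 5493] in healthy and 4747 in CCl4 hepatocyte-like cells. Apoc3, an inhibitor of lipoprotein lipase, was at 7636 [7532, 7741] and 5517 [5082, 5978]. Apoh, the plasma glycoprotein that binds phospholipids, was at 1468 and 686 [539, 861]. Hence each of these genes had a lower level in CCl4 hepatocyte-like cells, with limits that did not touch, but the 48 deep cells weigh heavily in the healthy value. Within cluster 9, which held cells of both libraries, Apoa1 was instead higher in CCl4 cells, at 1.55 [1.41, 1.71] times the healthy level, and Apoh was at 0.882 [0.684, 1.12] times.

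Apob and the less abundant members followed the same order of classes, apart from cholangiocyte-like cells. Apob, the single obligatory protein of very-low-density lipoprotein, was at 1199 [1158, 1241] in healthy hepatocyte-like cells, where 44.0% of cells had a UMI, and at 102 [50.9, 182] in CCl4 ones, from 11 UMIs. Apom, which carries sphingosine-1-phosphate on high-density lipoprotein, was at 422 [398, 447] and 426 [312, 569], values that overlapped fully. Apoa4, made in rodents by both intestine and liver, was at 79.1 [68.8, 90.4] and 102, the latter from 11 UMIs. Outside the hepatic clusters Apoa4 was almost absent: it had 22 UMIs in the 2970 healthy endothelial-like cells, 7 in the cholangiocyte-like cells and 11 in the 3117 CCl4 mesenchymal-like cells.

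The low-UMI hepatic cells held the same genes at lower levels. Apoa2 was at 7795 in the healthy and 4827 in the CCl4 cells of that cluster, Apoa1 at 1799 and 2298, and Apoc3 at 4225 and 3226. Apoa1 was the exception among these 3, with its higher value on the CCl4 side. Apob was thin in both, with 8 and 31 UMIs or 112 and 80.6 CPM.

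The 5 members Apoa1, Apoa2, Apob, Apoc3 and Apoh were summed as a gauge of hepatocyte RNA in other droplets. In the named non-hepatocyte classes of the healthy library (4496 cells) the gauge stood at 3.52 [3.47, 3.58] UMIs per cell, and in those of the CCl4 library (4515 cells) at 0.276 [0.261, 0.292]. The ratio of CCl4 to healthy was 0.0784 [0.0739, 0.0831]. A hepatocyte message was thus far more common in healthy than in CCl4 droplets of other cells. Over these classes together the CCl4 cells had the higher median of UMIs (13782 against 7634), which also reflects class make-up. The median was lower in CCl4 than in healthy mesothelial-like cells (17666 against 18546) and higher in endothelial-like cells (8797 against 6448.5). The healthy library also held more hepatocyte-like cells, with 352 gauge UMIs each against 99.2 in the CCl4 library, and how much this contributed was not tested.

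The gauge stood within a narrow range over healthy classes, although the limits of the classes did not all overlap. It was 3.14 [3.07, 3.20] UMIs per cell in endothelial-like, 3.32 [3.09, 3.56] in mesothelial-like and 56 in all over the 14 macrophage-like cells, and 4.45 [4.33, 4.57] in cholangiocyte-like cells. Relative to total UMIs these classes held between 0.589% (mesothelial-like) and 1.44% (endothelial-like) of the level in healthy hepatocyte-like cells, and all named non-hepatocyte cells together 1.14% [1.12, 1.15]. In the CCl4 library the gauge was 0.250 [0.218, 0.286] UMIs per cell in mesothelial-like, 0.291 [0.272, 0.310] in mesenchymal-like and 0.145 [0.0949, 0.213] in macrophage-like cells, and 0.182 [0.139, 0.235] over the 329 lymphoid and granulocyte-marker cells. The CCl4 share of the hepatocyte level was 0.103% [0.0977, 0.109] over all named non-hepatocyte cells. By class it ran from 0.0693% (mesothelial-like) to 0.249% (granulocyte-marker), apart from 0.790% in the small cholangiocyte-like class (20 cells, 28 gauge UMIs, of which 15 were Apob and 10 Apoh, so that the share from Apoa1, Apoa2 and Apoc3 was 0.0883%) and 0.475% in the endothelial-like class (15 cells, 12 UMIs).

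Counted as cells, 93.9% of healthy and 20.6% of CCl4 non-hepatocyte cells had at least 1 gauge UMI, at median depths of 7634 and 13782 UMIs. After each cell was thinned to 2000 UMIs the shares were 56.8% [55.3, 58.2] and 4.62% [4.02, 5.28], with 138 and 118 shallower cells left out. The gap therefore remained at equal depth. Each gauge gene was lower per CCl4 cell, with a CCl4 over healthy ratio of 0.117 for Apoa1, 0.0709 for Apoa2, 0.0748 for Apoc3, 0.0700 for Apob and 0.0677 for Apoh. However, 732 of the 1052 healthy Apob UMIs, and 534 of the Apoh UMIs, lay in cholangiocyte-like cells (1265 healthy and 20 CCl4). The Apob and Apoh ratios therefore also reflect class make-up. In mesothelial-like cells Apob was at 5.73 and 0.813 CPM and Apoh at 11.7 and 0.626, whereas in cholangiocyte-like cells neither was lower.

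**Figure D2:**
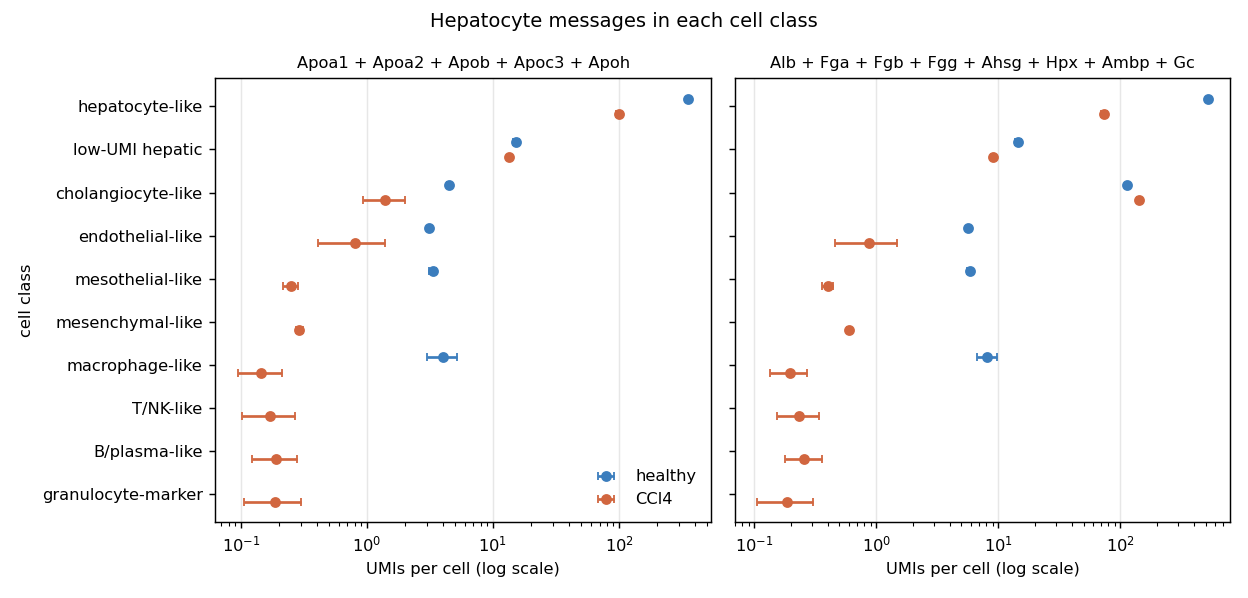
UMIs per cell, on a log axis, of 5 hepatocyte apolipoprotein genes (left) and of 8 other hepatocyte genes (right) in each cell class, for the healthy (blue) and CCl4 (red) library, with 95% limits that cover counting error only. On the left the healthy classes outside the hepatic clusters lie between 3.14 and 4.45 and the larger CCl4 classes between 0.145 and 0.291, whereas on the right cholangiocyte-like cells stand apart at 114 and 143.

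A second gauge of 8 hepatocyte genes that are not apolipoproteins (Alb, Fga, Fgb, Fgg, Ahsg, Hpx, Ambp and Gc) gave the same order of libraries but not of classes. It was 5.70 and 0.867 UMIs per cell in endothelial-like, 5.83 and 0.402 in mesothelial-like and 8.14 and 0.196 in macrophage-like cells, healthy and CCl4. Cholangiocyte-like cells departed from this with 114 and 143 per cell, 16.1% [16.0, 16.2] and 109% [105, 113] of the level in hepatocyte-like cells of the same library, against a sum of the 5 apolipoproteins near that of the other classes. The excess rested on Alb (albumin), at 5554 CPM in healthy cholangiocyte-like cells, Ambp, at 1745, and Ahsg, at 419. Fgb and Hpx were at 33.0 and 33.3, below the 57.4 and 58.7 of endothelial-like cells. The 5 apolipoproteins thus varied less over classes than the 8 other genes.

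RNA from a single source keeps its genes in 1 ratio wherever it is found, so each member was also expressed per 100 Apoa2 UMIs, a measure chosen after the data were seen. In the healthy library Apoa1 was at 29.7 [29.2, 30.3] in hepatocyte-like, 30.3 [27.9, 32.9] in cholangiocyte-like, 31.1 [29.3, 33.0] in endothelial-like and 28.6 [23.1, 35.2] in mesothelial-like cells. Apoc3 was at 42.0, 45.2 [42.1, 48.5], 43.8 [41.6, 46.1] and 42.5 [35.4, 50.9] in the same order. These ratios were the same in all 4 classes to within a few units. Apoc1, an inhibitor of lipoprotein uptake and of lipid transfer, was at 81.2 [80.1, 82.3], 81.8 [78.4, 85.3] and 76.8 [66.1, 89.2] in hepatocyte-like, endothelial-like and mesothelial-like cells, so its UMIs in endothelial-like and mesothelial-like droplets stood in the hepatocyte ratio. In cholangiocyte-like cells it was at 1412 [1355, 1471] and left that ratio.

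**Figure D3:**
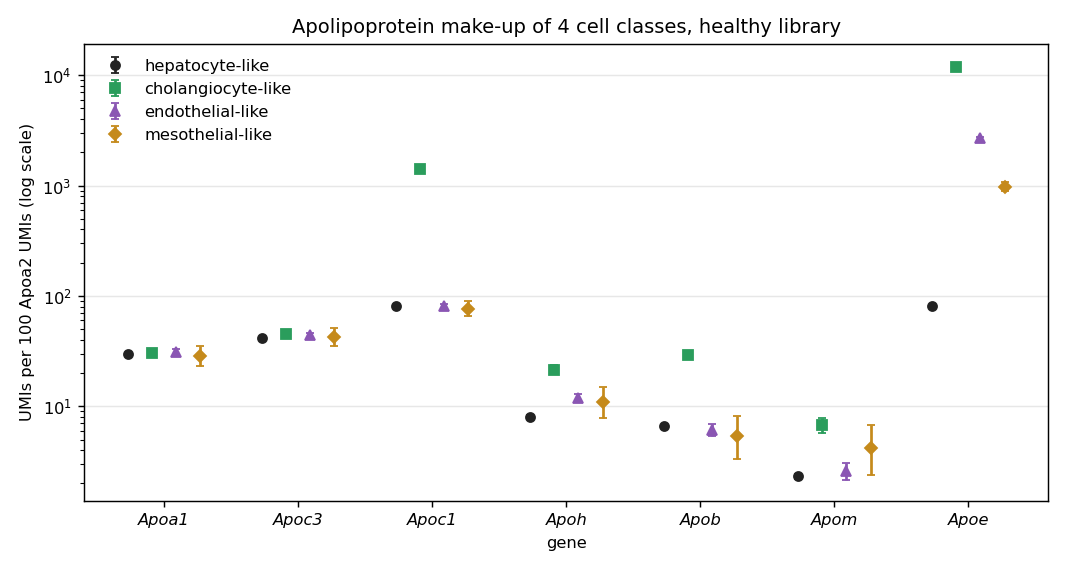
UMIs of 7 apolipoprotein genes per 100 Apoa2 UMIs (log axis) in hepatocyte-like (black), cholangiocyte-like (green), endothelial-like (purple) and mesothelial-like (orange) cells of the healthy library, with 95% limits that cover counting error only. Apoa1 and Apoc3 coincide in the 4 classes, Apoc1 and Apob depart in cholangiocyte-like cells alone, and Apoe departs in all 3 non-hepatocyte classes. Apoh lies above its hepatocyte-like value in cholangiocyte-like and in endothelial-like cells.

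The reference ratio was itself not one number. Within hepatocyte-like cells Apob was at 7.89 [7.61, 8.19] per 100 Apoa2 UMIs in the deep cluster 4 and at 1.81 [1.56, 2.09] in the healthy cells of cluster 9, and it was at 1.23 [0.613, 2.22] in the CCl4 cells of cluster 9 and 1.67 [1.13, 2.38] in the CCl4 cells of cluster 10. Apoa1 was at 31.2, 24.2, 57.4 [51.4, 64.1] and 47.6 in these 4 groups, and Apoc3 at 38.8, 53.8, 66.7 and 66.8. The ratios in healthy endothelial-like droplets thus stood closer to the deep cells than to the shallow ones for Apob, Apoa1 and Apoc3.

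Apob and Apoh had more UMIs in cholangiocyte-like droplets than the Apoa2 there predicted at the hepatocyte-like ratio. Apob was at 40.8 [37.9, 43.9] CPM in healthy cholangiocyte-like cells (732 UMIs) and at 15.4 in endothelial-like cells (294 UMIs). Per 100 Apoa2 UMIs that was 29.4 [27.1, 32.0] against 6.59 [6.36, 6.83] in hepatocyte-like, 6.09 [5.39, 6.85] in endothelial-like and 5.38 [3.33, 8.26] in mesothelial-like cells, or 4.47 [4.08, 4.89] times the value predicted from Apoa2. Apoh was at 21.5 [19.5, 23.6] in cholangiocyte-like cells, with 8.07 in hepatocyte-like, 11.9 [10.9, 13.0] in endothelial-like and 11.0 [7.90, 15.0] in mesothelial-like cells, and Apom at 6.76 [5.75, 7.90] with 2.32 in hepatocyte-like cells. Apob stood out also in cells without any UMI of Apoa1, Apoa2 and Apoc3, at 0.432 [0.306, 0.593] UMIs per cell in 88 cholangiocyte-like and 0.0560 [0.0313, 0.0923] in 268 endothelial-like cells. In the CCl4 library, 17 of the 20 cholangiocyte-like cells lacked these 3 genes and held 12 Apob UMIs, 0.706 per cell, and Apob was at 81.8 [45.8, 135] CPM in all 20, with limits that overlapped those of CCl4 hepatocyte-like cells.

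In the CCl4 library too, Apob in other droplets exceeded what Apoa2 predicted. Per 100 Apoa2 UMIs, Apob was at 9.58 [6.71, 13.3] in mesenchymal-like cells (39 UMIs), 7.77 [3.85, 17.0] times the value predicted from the 21 CCl4 hepatocyte-like cells, whose own Apob count was 11, and at 12.6 [6.50, 22.5] in mesothelial-like cells (13 UMIs). Apoa1 was at 53.6 [45.2, 63.3] in mesenchymal-like cells and Apoc3 at 45.9 [38.4, 54.8], close to the CCl4 hepatocyte-like values for Apoa1 and below them for Apoc3. Barcodes that had been removed for a mitochondrial share over 30% held 175 Apob and 87 Apoa2 UMIs in the CCl4 library, and 1200 and 4724 in the healthy library. Such removed droplets were therefore rich in Apob as well, and their part in the background was not tested.

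Apoe, the ligand by which remnant particles are taken up through the LDL receptor family, had the broadest distribution. In the healthy library it was at 14628 CPM in hepatocyte-like cells, 16537 [16478, 16597] in cholangiocyte-like, 6799 [6762, 6836] in endothelial-like, 1043 [1011, 1076] in mesothelial-like and 26524 in the 14 macrophage-like cells. The limits of neighbours in this order did not touch. Each cholangiocyte-like cell held 235 Apoe UMIs on average, with a median depth of 11689 UMIs, and each hepatocyte-like cell 152. Per 100 Apoa2 UMIs, Apoe was at 80.5 in hepatocyte-like, 11935 in cholangiocyte-like, 2684 [2608, 2763] in endothelial-like and 979 [884, 1086] in mesothelial-like cells, so it left the hepatocyte-like ratio in every one of these classes.

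A second prediction, added after the data were seen, summed a hepatocyte source scaled by Apoa2 and a cholangiocyte source scaled by Spp1 (osteopontin, a cholangiocyte message). Observed Apoe was 21.0 times the sum of both in healthy endothelial-like cells, 6.66 times in mesothelial-like and 101 times in macrophage-like cells. In the same order of classes Apoc1 was at 0.942, 0.862 and 14.4 times, Apob at 0.907, 0.796 and 0.466 times and Apoh at 1.46, 1.34 and 1.92 times. The macrophage-like values of Apob and Apoh rest on 1 and 5 UMIs. Apoh thus exceeded the sum of both sources in each of these classes. With Epcam or Krt19 in place of Spp1 the endothelial value for Apoe was 23.3 or 19.2. For mesothelial-like cells Epcam gave 7.54 and Krt19 0.0283, where Krt19, with 5207 UMIs in these 231 cells, is a message of the mesothelium as well and cannot serve as a measure of cholangiocyte RNA. Endothelial-like cells without any UMI of Apoa1, Apoa2 and Apoc3 still held 38.1 Apoe UMIs each, against 43.6 in all endothelial-like cells. Among the 3 endothelial-like clusters, Apoe ranged from 4212 to 7944 CPM.

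In the CCl4 library Apoe was led by macrophage-like and cholangiocyte-like cells and was strong in the mesenchyme. It was at 17509 [17256, 17766] in 179 macrophage-like cells, 15251 in 20 cholangiocyte-like, 5517 [5082, 5978] in 21 hepatocyte-like, 5327 [5305, 5348] in 3117 mesenchymal-like, 1789 [1768, 1809] in 855 mesothelial-like and 1345 [1154, 1559] in 15 endothelial-like cells. The hepatocyte-like and mesenchymal-like limits overlapped. T/NK-like, B/plasma-like and granulocyte-marker cells had 395, 280 and 262, the lowest among the classes. Mesenchymal-like cells, which produce the collagen of the scar, held 74.5 Apoe UMIs each. Their median was 67 and their highest value 356, so that the level was shared across the class as named. Macrophage-like cells, from which monocytes were not separated, differed in this: their mean was 101 and their median 15. The 10 of them with most Apoe held 38.0% of its UMIs.

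The share of cells with an Apoe UMI gave the same picture. Thinned to 2000 UMIs, it was 98.4% in mesenchymal-like, 86.6% in mesothelial-like and 78.3% in macrophage-like cells, and 35.3% [29.9, 41.1] in the lymphoid and granulocyte-marker cells, where the gene is not expected and which stand for background here. By class these held 33.0% (T/NK-like), 37.1% (B/plasma-like, which also carried dendritic markers) and 35.3% (granulocyte-marker). Without thinning, the share was 99.8% in mesenchymal-like cells, at a median of 13863 UMIs, and 53.5% in the lymphoid and granulocyte-marker cells, at 3734. In those latter cells Apoe was at 1.39 UMIs per cell and 316 CPM, 25.3 times what their Apoa2 predicted. Apoe was thus well above the hepatocyte-like ratio even in these droplets. That prediction counts hepatocyte RNA only, and the part of RNA from other cells rich in Apoe was not tested. The 2487 mesenchymal-like cells without Apoa1, Apoa2 and Apoc3 held 74.0 [73.7, 74.4] Apoe UMIs each.

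**Figure D4:**
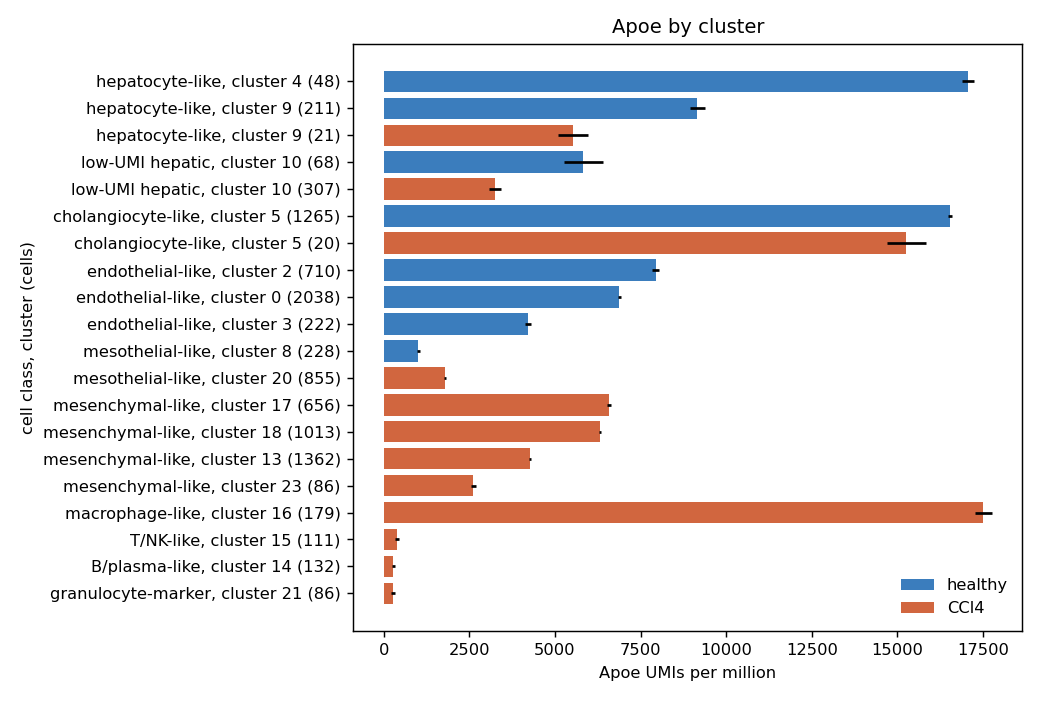
Apoe CPM (bars, from 0, with 95% limits that cover counting error only) by cluster of each named class and of the low-UMI hepatic cells, healthy in blue and CCl4 in red, with cell numbers in parentheses. Healthy cholangiocyte-like cells (16537) and CCl4 macrophage-like cells (17509) stand near or above the deep hepatocyte-like cluster (17064), and the CCl4 lymphoid and granulocyte-marker clusters stand at 262 to 395.

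Mesenchymal-like clusters were not alike. Apoe was at 6574 and 6315 in clusters 17 and 18, at 4281 in cluster 13 and at 2613 in the 86 cells of cluster 23. Cluster 23 carried 4 endothelial beside 4 mesenchymal markers, and its median was 21085 UMIs, against 13820 in the CCl4 cells of cluster 13. It is thus not a purely mesenchymal group. Cluster 11 (801 CCl4 cells), which stayed unnamed, carried 9 mesenchymal markers. It held 5778 Apoe UMIs in all, at a median depth of 1227 UMIs, and is not part of the mesenchymal-like values. The 10 healthy mesenchymal-like cells held 100.1 Apoe UMIs each, a number of cells too small to place the healthy level.

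Apoc1 was a hepatocyte message with further sources in cholangiocyte-like and macrophage-like cells. It was at 14763 and 9559 CPM in healthy and CCl4 hepatocyte-like cells, and at 1956 [1936, 1976] and 2045 [1844, 2263] in cholangiocyte-like cells. In healthy cholangiocyte-like cells this was 17.4 [16.7, 18.2] times the prediction from Apoa2, and the 88 of them without Apoa1, Apoa2 and Apoc3 held 22.4 Apoc1 UMIs each, against 27.7 in all. Macrophage-like cells had 2602 in the healthy and 662 [613, 713] in the CCl4 library, where most had none and the 10 richest cells held 60.6% of the UMIs. In healthy endothelial-like and mesothelial-like cells Apoc1 was at 207 and 81.8 [73.0, 91.3], the hepatocyte ratio described above.

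In the CCl4 mesenchyme Apoc1 was low but above the lymphoid background. Mesenchymal-like cells held 1.88 UMIs each, 134 [131, 138] CPM, and lymphoid and granulocyte-marker cells 0.152 each, 34.6 CPM. At 2000 UMIs the shares of cells with an Apoc1 UMI were 19.1% [17.7, 20.5] and 5.80% [3.42, 9.11], and without thinning 55.7% and 10.3%. Observed Apoc1 in mesenchymal-like cells was 12.5 [10.9, 14.3] times the prediction from Apoa2. Clusters 18 and 17 had the higher levels, 188 and 181, and clusters 23 and 13 had 87.1 and 78.4.

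Apoc2, the activator that lipoprotein lipase requires, was far more frequent in the CCl4 library. All kept healthy cells held 48 Apoc2 UMIs and all kept CCl4 cells 857. In hepatocyte-like cells it was at 10.8 [7.21, 15.5] and 983 [805, 1189] CPM, in low-UMI hepatic cells at 13.9 (1 UMI) and 1003 [906, 1109], and in cholangiocyte-like cells at 0.725 and 175 [119, 246], although a single CCl4 cholangiocyte-like cell held 21 of the 32 UMIs there. CCl4 macrophage-like cells were at 174 [149, 201], with a UMI in 35.8% of cells, and the 14 healthy ones had none. The gene lists of the files differed at this locus. Gm44805 (ENSMUSG00000109350), which spans chromosome 7 from 19671579 to 19681460 and so covers Apoc2, was on the healthy list only, where it had 0 UMIs. In a GRCm39 annotation 646 of 1552 exonic bases of Apoc2 (41.6%), and 293 of its last 300, overlapped exons of Gm44805. Reads that fall on exons of more than 1 gene can be left uncounted, so the difference in Apoc2 between the libraries cannot be told apart from the difference between their annotations. Its neighbour Apoc4, with 119 of 2617 exonic bases in this overlap (4.55%), had 6898 UMIs in the healthy and 1273 in the CCl4 library.

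The CCl4 library was then set against the healthy library within each class, as a log2 ratio of CPM, over genes whose higher level would give at least 10 UMIs in the smaller of both sums. In the pooled hepatic cells (327 healthy and 328 CCl4, clusters 4, 9 and 10), Apoa2 was at 17913 and 5581 and had a log2 ratio of -1.68 [-1.74, -1.63]. Apoe was at -1.95 [-2.01, -1.88], Apoh at -1.88 [-2.10, -1.67], Apoc3 at -1.02 [-1.09, -0.95] and Apob, from 1171 to 85.3, at -3.78 [-4.25, -3.34]. Apoc1 (-0.99), Apoa1 (-0.91) and Apom (-0.90) fell short of 2-fold, Apoa4 was at 0.19 [-0.31, 0.67], and Apoc2 was at 6.52, with the annotation limit above. Thus 5 of 10 members were at least 2-fold lower, where 21.9% of the 5089 genes compared were, and 1 was at least 2-fold higher, where 20.4% were. The median over the members was -1.01 and over all genes 0.21.

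Much of this rested on which hepatic cells each library held. Without the 48 deep healthy cells, for which the CCl4 library had no counterpart, Apoa1 moved to -0.06 [-0.16, 0.03], Apob to -1.36 [-1.87, -0.87], Apoh to -0.95, Apom to -0.26, Apoe to -1.25 and Apoa2 to -1.13, and the median to -0.77. With a mitochondrial limit of 10%, or with each library clustered on its own, the median was -5.21 or -5.19, and the hepatocyte name then took in 569 or 384 cells of the CCl4 cluster 22, which was unnamed here, carried 2 hepatocyte markers and had Apoa2 at 4.24 CPM. Without the cells of that cluster the median was -1.97 or -1.17. Within cluster 9, the ratio itself (not its logarithm) was 0.656 [0.612, 0.703] for Apoa2, 0.602 [0.553, 0.654] for Apoe, 0.448 [0.220, 0.820] for Apob, 0.882 [0.684, 1.12] for Apoh and 1.55 [1.41, 1.71] for Apoa1. Within cluster 10 it was 0.619 for Apoa2, 0.557 [0.498, 0.624] for Apoe, 0.722 [0.325, 1.82] for Apob, 0.616 for Apoh and 1.28 for Apoa1. The clusters had in common a lower Apoa2 and Apoe and a higher Apoa1 on the CCl4 side. In the hepatocyte-like cells alone 4 of 10 members were 2-fold lower (20.7% of all genes were) and 1 was higher (29.3%), and in the low-UMI hepatic cells 0 of 8 (20.6%) and 1 (9.98%), the higher one being Apoc2 in each.

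**Figure D5:**
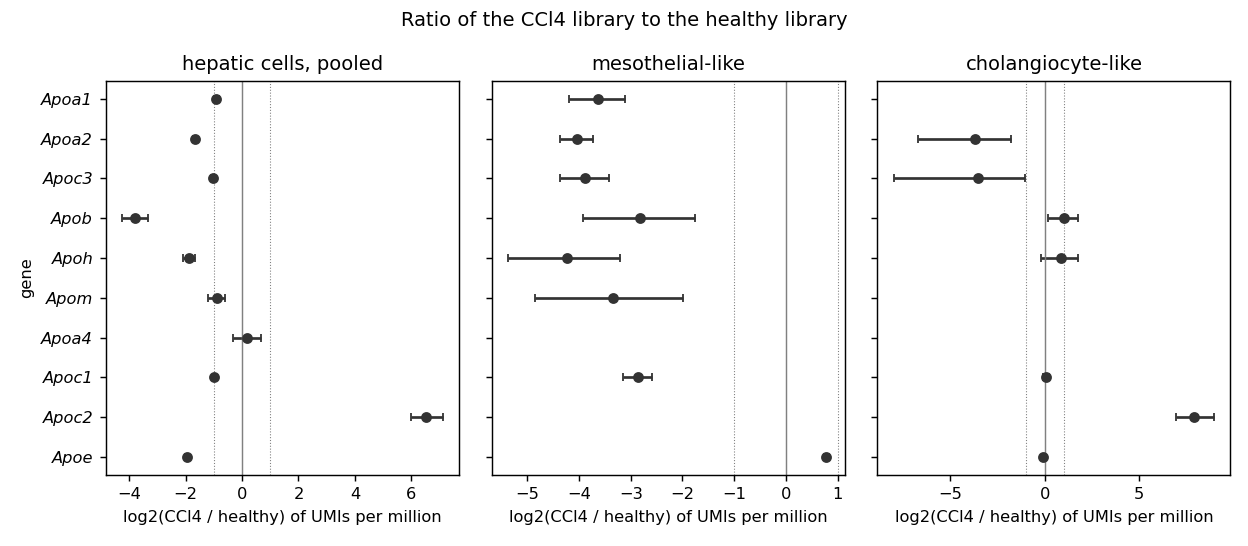
Log2 ratio of CPM, CCl4 over healthy, of the 10 genes in pooled hepatic, mesothelial-like and cholangiocyte-like cells, with 95% limits that cover counting error only, a solid line at no difference and dotted lines at 2-fold. Apob is lowest in hepatic cells at -3.78 and lies at 1.0 in cholangiocyte-like cells, and in mesothelial-like cells Apoe (0.78) lies above 0 while the other 7 genes shown lie at or below -2.82.

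Mesothelial-like cells, which line the liver surface, were numerous in both libraries, although 228 of the 231 healthy cells lay in cluster 8 and all 855 CCl4 cells in cluster 20. Apoe was at 1043 and 1789 CPM, a ratio of 1.72 [1.66, 1.77], or 0.78 [0.73, 0.83] as log2, and at 17.3 and 33.4 UMIs per cell. The log2 ratio was 0.28 when only cells with at least 1000 UMIs entered the clustering. The other 7 members compared were lower by 2-fold or more, Apoa2 from 107 to 6.44 (-4.05), Apoc3 from 45.3 to 3.07 (-3.89), Apoa1 from 30.5 to 2.44 (-3.64) and Apoc1 from 81.8 to 11.2 (-2.87) among them, where 13.7% of 11659 genes were. None was 2-fold higher, where 10.7% of all genes were. The median of the members was -3.49 and that of all genes -0.07. The gauge, which contains 5 of these 7 genes, was 3.32 UMIs per cell in healthy and 0.250 in CCl4 mesothelial-like cells, and its part in the ratios of Apoc1 and Apom was not tested. An unnamed cluster with endothelial markers (cluster 6, 48 healthy and 632 CCl4 cells) also had more Apoe in the CCl4 library, 885 and 1549 CPM, a ratio of 1.75.

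In cholangiocyte-like cells, with only 20 CCl4 cells, Apoe (-0.12) and Apoc1 (0.06) were nearly level, Apoa2 (-3.67) and Apoc3 (-3.52) were lower, and Apob was at 1.0 [0.16, 1.74] and Apoh at 0.87 [-0.19, 1.76]. With Apoc2, 2 of 7 members were at least 2-fold higher (3.33% of all genes) and 2 lower (8.87%). In macrophage-like cells (14 healthy) Apoe was at -0.60 [-0.65, -0.55] and Apoc1 at -1.98, and 3 of 5 members were 2-fold lower (19.1%) and 1, Apoc2, higher (8.81%). In endothelial-like cells all 5 members compared were 2-fold lower (13.7%) and 0 were higher (8.47%), with Apoe at -2.34 and Apoa1 at -1.04 [-2.67, 0.18]. Only 15 CCl4 cells carried that name, 7 in cluster 0 and 8 in cluster 3. Of the healthy cells 2038 lay in cluster 0, 710 in cluster 2 and 222 in cluster 3, where healthy Apoe was lowest at 4212. The unnamed cluster 6, with endothelial markers and 632 CCl4 cells, was not part of this comparison. Its Apoe was higher in CCl4 cells, at a ratio of 1.75 [1.61, 1.91]. In mesenchymal-like cells, with 10 healthy cells, all 4 were lower (16%) and 0 higher (9.33%). Apart from Apoc1 and Apoe, the lower members of the macrophage-like, endothelial-like and mesenchymal-like classes were genes of the gauge. The gauge was itself far lower in CCl4 than in healthy droplets of other cells, and its part in these counts was not tested. In healthy endothelial-like cells Apoc1 also stood in the hepatocyte ratio.

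Other genes of lipoprotein metabolism were placed by the class with their highest level, among class and library combinations of at least 50 cells. Of 7 other apolipoprotein genes 4 were highest in hepatic cells, among them Apoc4 at 2107 (and at 2652 in the 21 CCl4 hepatocyte-like cells), Apof at 549 and Apoa5 at 523 CPM, and Clu (clusterin) was highest in healthy cholangiocyte-like cells at 15777 (and at 16593 in the 20 CCl4 ones). None of the 10 lipoprotein receptors was highest in hepatic cells. Lrp1, a receptor for Apoe-bearing remnants, was highest in CCl4 mesenchymal-like cells at 574, and the fatty acid receptor Cd36 in healthy endothelial-like cells at 399. Of 11 lipases and remodelling proteins 4 were highest in hepatic cells, while Gpihbp1, which anchors lipoprotein lipase to the capillary wall, was at 2181 in endothelial-like and Lpl, the lipase that Apoc2 activates, at 1233 in CCl4 mesenchymal-like cells. Of 10 genes of assembly, editing and efflux 4 were hepatic, among them P4hb, a subunit of the microsomal transfer protein that loads lipid onto apolipoprotein B, at 527, and 3 were highest in CCl4 macrophage-like cells, the cholesterol exporter Abca1 at 202 among them. Of 11 regulators 3 were hepatic, with Hnf4a at 126 from 9 UMIs, and Nr1h3, the liver X receptor that acts on Apoe in macrophages, was highest in CCl4 macrophage-like cells at 207.

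The genes whose levels over 12 class and library combinations most resembled the gauge were Serpina1c, Hamp, Hpx, Gc and Serpina3k, with Pearson's r of 0.994 to 0.986 among 7419 genes. The genes most like Apoe were Prdx4, Dhrs3, Akr1a1, Parl and Selenop, at 0.898 to 0.837. The combinations share libraries and their background, so these are descriptions only.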

How the data were processed

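Liver cells of 1 healthy and 1 CCl4 library were profiled by droplet RNA sequencing of 3′ ends. The authors deposited whole-number UMI counts per gene and barcode, without normalization, as 10x matrices whose headers name software version 3.1.0 for the healthy and 6.0.1 for the CCl4 file. The submitters' processing notes name the builds GRCh38 and mm10. The study's methods describe trimming, alignment to the human build GRCh38 and counting with featureCounts 1.6.2, then grouping by barcode, UMI and gene, whereas the files hold mouse Ensembl identifiers, so the build behind these counts could not be settled. The identifiers of the files were used, and coordinates are RefSeq's for GRCm38.p6 (mm10).

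From the counts, barcodes were kept from 500 UMIs and 200 genes upwards if no more than 30% of their UMIs were mitochondrial, over the 30406 shared genes. The low limits removed 79 healthy and 155 CCl4 barcodes, and the mitochondrial limit 339 and 504. Doublets were the cells with the highest Scrublet scores, up to 0.8% per 1000 cells, which removed 277 and 487. Cells of both libraries were clustered jointly without the members (2000 variable genes, 10 principal components, 20 neighbours, Leiden resolution 1, seed 1), giving 24 clusters, and named from marker lists of 11 classes (at least 3 markers, each at least 2-fold above the other cells and in at least 10% of cells). Levels are CPM with exact Poisson limits, shares have exact binomial (Clopper-Pearson) limits, and ratios exact conditional limits (binomial, or those of an odds ratio for observed over predicted counts). A count of 0 was raised to 3 for a ratio. A single library stands for each condition, hence there are no p-values. Calls of 2-fold were checked on simulated counts for the pooled hepatic cells (4221 genes, 200 changed). There 100% of genes raised 4-fold, 94% of those lowered 4-fold and 0.846% of unchanged genes were called, and 96.3% of the limits held the true value. A call there also needed limits that excluded no difference, whereas the counts of members above rest on the ratio alone. The simulated counts had Poisson error only, which the limits assume, so the check says nothing about spread between cells or animals.

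All 10 members were named, with up to 4 genes of each pathway list, those with the highest level in any class of at least 50 cells, and the 5 genes most alike to Apoe and to the gauge. The members and lists were chosen with earlier results of these data known. Alternatives changed the filters, the clustering, the gauge and the scaling. Those added after seeing the data were the gauge of 3 members, the values per 100 Apoa2 UMIs, the cholangiocyte source, the values without cluster 4, without cluster 22 under 2 settings, without the 20 deepest cells of each class or without Apoc2, and Apoe per mesothelial-like cell. Software was python 3.11.15 (scanpy 1.11.5, anndata 0.12.19, igraph 0.11.9; arrays and tables in numpy 2.4.6 and pandas 2.3.3, statistics in scipy 1.17.1, figures in matplotlib 3.10.9). TMM factors came from edgeR 4.0.16 under R 4.3.3.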

Additional observations from a re-analysis of the deposited data

Results flagged for a closer look

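Apob differed in opposite directions in different cell classes. Its log2 ratio of CCl4 over healthy was 1.0 [0.16, 1.74] in cholangiocyte-like cells, a value that rested on 15 UMIs in 20 CCl4 cells. It was -3.78 in pooled hepatic cells (-1.36 without the 48 deep healthy cells, and a ratio of 0.722 [0.325, 1.82] within cluster 10). In mesothelial-like cells, where healthy Apob stood at the hepatocyte-like ratio to Apoa2, it was -2.82. Apoe was higher in the CCl4 library in mesothelial-like cells, at 0.78. It was lower in pooled hepatic (-1.95), cholangiocyte-like (-0.12, or -0.01 with TMM factors), endothelial-like (-2.34) and macrophage-like cells (-0.60). The endothelial-like value rested on 15 CCl4 cells, and in the unnamed cluster 6, which had endothelial markers, Apoe was higher at a ratio of 1.75 [1.61, 1.91]. The difference between these classes was not tested, since each class had 1 library per condition.

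Barcodes removed for a mitochondrial share over 30% entered no comparison, and they carried the 5 gauge genes at 28.5 UMIs per barcode in the healthy and 0.851 in the CCl4 library, both above the named non-hepatocyte cells of the same library (3.52 and 0.276).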

How the results depend on the processing

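Of the 6 main results the 2 log2 ratios kept their sign under every alternative run, and the hepatic median depended on which cells were taken as hepatic. No paired analysis was possible because each condition had 1 library. Values are given in the order gauge CPM in healthy hepatocyte-like cells (33889 as reported), gauge UMIs per cell in healthy (3.52) and CCl4 (0.276) non-hepatocyte cells, Apoe CPM in CCl4 mesenchymal-like cells (5327), log2 ratio of Apoe in mesothelial-like cells (0.78) and median log2 ratio of the members in pooled hepatic cells (-1.01). With a mitochondrial limit of 10% the gauge level was 22754, mesenchymal Apoe 5225 and the hepatic median -5.21, and with each library clustered on its own the gauge level was 38708, the CCl4 gauge 0.260, mesenchymal Apoe 5545 and the hepatic median -5.19. Under these settings the hepatocyte name took in 569 and 384 cells of the unnamed CCl4 cluster 22, and without the cells of that cluster the median was -1.97 and -1.17. Without a mitochondrial limit the values were 26617, 5198, 0.68 and -0.67, for the gauge level, mesenchymal Apoe, mesothelial Apoe and the hepatic median. With at least 1000 UMIs per cell the last 3 were 5196, 0.28 and -0.91, so that the mesothelial difference in Apoe shrank most there, with 983 CCl4 cells in the class. With no doublets removed the gauge level was 32790.2, the CCl4 gauge 0.294, mesenchymal Apoe 5245 and mesothelial Apoe 0.69. With 30 components the gauge level was 33401, and at resolution 2 mesenchymal Apoe was 5162 and mesothelial Apoe 0.68. With every cell weighing the same, the gauge level was 23512, mesenchymal Apoe 5482 and the hepatic median -0.91. TMM factors gave 0.89 and -1.19 for mesothelial Apoe and the hepatic median, and totals without the 50 most abundant genes 0.83 and -1.18. TMM moved the median of all genes from 0.21 to 0.03 in pooled hepatic, -0.07 to 0.04 in mesothelial-like and -0.12 to -0.01 in cholangiocyte-like cells. Mesothelial Apoe was 0.95 per cell. The gauge level and its UMIs per healthy and CCl4 cell were 28485, 2.99 and 0.214 without Apoa1, 15707, 1.79 and 0.153 without Apoa2, 32690.2, 3.29 and 0.260 without Apob, 26253, 2.76 and 0.219 without Apoc3, 32421, 3.26 and 0.258 without Apoh, 31222, 3.03 and 0.242 from Apoa1, Apoa2 and Apoc3, and 50003, 36.2 and 1.15 from the 8 other hepatocyte genes. Without the 48-cell cluster the gauge level was 23442 and the hepatic median -0.77, and without the 20 deepest cells 30340.5 and -0.92. Of 824 further values 614 stayed within their limits and 210 moved, 92 up and 118 down, 62 of them by over 1.5-fold. In pooled hepatic cells Apob was at -5.75 and -7.90 and Apoc2 at 1.42 and 2.30 under the 10% limit and separate clustering. Apart from cluster 22, the causes were not tested. Thin classes (10 healthy mesenchymal-like, 14 healthy macrophage-like, 15 and 20 CCl4 endothelial-like and cholangiocyte-like cells) limit every value that rests on them.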

Other observations

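The removed barcodes differed in composition between the libraries. Over a mitochondrial share of 30%, the healthy barcodes (339, median of 1723 UMIs) held 4724 Apoa2, 1603 Apoa1, 1489 Apoc3, 1200 Apob and 10130 Apoe UMIs. The CCl4 barcodes (504, median of 1543 UMIs) held 87 Apoa2, 99 Apoa1, 51 Apoc3, 175 Apob and 1277 Apoe UMIs. Apob therefore exceeded Apoa2 among the removed CCl4 barcodes and not among the healthy ones.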
